A study of Mus musculus with 10 samples.

Results

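Expression levels of 8 genes that build or modify the light chains of sarcomeric myosin were followed across EDL, psoas, and soleus, out of 16112 genes in the deposited count files. The 6 light chain genes were Mylpf and Myl2 (regulatory chains) and Myl1, Myl3, Myl4, and Myl6b (essential chains), and the 2 kinase genes were Mylk2 and Mylk4. They were chosen by gene family, and each was matched by its Ensembl identifier. RNA came from wild type mice of the strain B6C3Fe a/a-Ttnmdm/J, a stock that segregates a titin mutation which the wild type animals lack. The mice had also served another experiment. The EDL (extensor digitorum longus, a fast hindlimb muscle) gave 3 libraries from mice of 42, 54, and 44 days, the psoas (a fast hip flexor) 3 libraries from mice of the same ages, and the soleus (a slow calf muscle) 4 libraries from mice of 42, 44, 32, and 44 days. The animal codes of the labels tie psoas 1 to soleus 1, EDL 3 to soleus 2, and psoas 3 to soleus 4, so that the muscles were not all sampled from separate mice.

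A myosin head carries a long neck that is stiffened by an essential and a regulatory light chain. Different genes supply these chains in fast and in slow fibers, and the slow genes Myl2 and Myl3 also serve the heart's ventricles. Calcium and calmodulin activate myosin light chain kinase, which phosphorylates the regulatory chain and thereby raises the force of a submaximal contraction, an effect best known from fast fibers. A phosphatase made of a catalytic and a targeting subunit removes the phosphate.

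Mylpf, Myl3, Myl6b, and Mylk4 are genes of a fast regulatory chain, a slow essential chain, a further slow essential chain, and a kinase, and the bases before their RefSeq start sites are shown because these genes differed in opposite directions between soleus and the fast muscles. Of these, Mylk4 passed the thresholds given below against psoas only. The sequences are RefSeq's for GRCm38.p6, read 5′ to 3′ on the strand of the gene and ending before any annotated exon. They lie at chr7:127211358-127211607 on the plus strand (Mylpf), chr9:110763428-110763645 on the plus strand (Myl3), chr10:128498686-128498935 on the minus strand (Myl6b), and chr13:32783965-32784214 on the minus strand (Mylk4). Capitals mark matches on either strand to the E-box (CANNTG), to MCAT (CATTCC), and to the MEF2 and CArG motifs by name.
Mylpf: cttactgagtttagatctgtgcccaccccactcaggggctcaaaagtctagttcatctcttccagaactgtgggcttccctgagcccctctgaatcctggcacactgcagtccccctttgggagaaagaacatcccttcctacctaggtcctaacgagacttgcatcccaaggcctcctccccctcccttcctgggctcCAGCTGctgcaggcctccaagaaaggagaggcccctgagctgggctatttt
Myl3: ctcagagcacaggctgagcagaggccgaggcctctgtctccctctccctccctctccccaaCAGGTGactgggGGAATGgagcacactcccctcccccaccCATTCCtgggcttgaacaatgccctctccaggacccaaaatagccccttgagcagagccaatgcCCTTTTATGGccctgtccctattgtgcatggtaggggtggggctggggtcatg
Myl6b: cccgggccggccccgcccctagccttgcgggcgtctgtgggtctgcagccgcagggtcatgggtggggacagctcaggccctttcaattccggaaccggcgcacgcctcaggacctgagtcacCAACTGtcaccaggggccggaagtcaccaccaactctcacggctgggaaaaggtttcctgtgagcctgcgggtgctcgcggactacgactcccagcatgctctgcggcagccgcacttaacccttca
Mylk4: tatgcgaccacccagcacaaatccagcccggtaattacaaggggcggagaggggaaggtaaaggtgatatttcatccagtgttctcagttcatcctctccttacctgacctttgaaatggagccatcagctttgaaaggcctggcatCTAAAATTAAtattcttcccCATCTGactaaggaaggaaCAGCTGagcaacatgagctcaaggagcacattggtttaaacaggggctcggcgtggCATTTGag
The sequences of Mylpf, Myl3, and Myl6b held 1 E-box each, and that of Mylk4 held 3. E-boxes were present in 66.2% of all 32851 promoter windows of 250 bases and in 61.4% of windows of 218 bases, the length shown for Myl3. The Myl3 sequence also held 2 MCAT matches, a motif in 11.03% of windows of that length, and 1 CArG match, found in 1.29%. The Mylk4 sequence held 1 match to the MEF2 motif, present in 2.92% of windows of 250 bases. No marked match overlapped another. These matches are letters in a window and say nothing of binding. The RefSeq start of Mylk4 lay 10 bases from the nearest GENCODE start of that gene and 2248 bases before that of the principal transcript. RefSeq windows were at hand for 7 of the 8 genes. Those of Myl1 and Myl4 had 147 and 42 bases in a row outside annotated exons, and the Myl2 windows lay 7762 and 8227 bases before the GENCODE start of that gene, and these were not shown. There was no entry for Mylk2.

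Levels are given as FPKM, here counts per kilobase of exon scaled to library size by DESeq2's size factors. The length was that of all annotated exons of a gene joined, which can exceed that of a single transcript. It was 4637 bases for Myl4, against 943 for its longest basic transcript, and 2951 by both for Mylk2. Comparisons between genes thus depend on the length used. Differences are edgeR log2 fold changes with their standard errors, from 1 fit over the 10 libraries, and a gene was called where it differed more than 2-fold with an adjusted p under 0.01. Total counts lay between 12737971 and 50431713 per library, and the 8 genes together took between 0.949% and 1.82% of them. Lars2 took 7.25% to 12.4% of the counts in EDL 1, psoas 1, psoas 2, and soleus 1, and at most 0.0760% in the others. The study also lists a lower share of mapped reads for these libraries than for the others. It sequenced the libraries over several runs and corrected for a sequencing batch in its principal components and heatmaps. No fit here included the run or the mapped share, and their part in the levels was not tested. In EDL and psoas, replicates 1 and 2 were quality-trimmed and male and replicate 3 was untrimmed and female, so that trimming and sex cannot be told apart there. The soleus libraries were all untrimmed. Soleus 1 was male, soleus 2 and soleus 4 were female, and the sex of soleus 3 was not known. Markers of the labelled tissue were present throughout: Acta1 was at 5602 FPKM or above in every library, and the summed FPKM of 5 slow fiber genes was 2146 to 3088 in soleus and 6.59 to 42.3 in the fast muscles. In whole muscle, fewer fibers of a type and less RNA per fiber cannot be told apart.

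Between soleus and EDL, 6 of the 8 genes passed the thresholds, against 5.77% of all genes tested. The 3 slow chains Myl2, Myl3, and Myl6b were higher in soleus, as were 3.59% of all genes, and the 3 fast genes Mylpf, Myl1, and Mylk2 were lower, as were 2.18%. Between soleus and psoas, 7 of the 8 passed (5.69% of all genes), with Mylk4 as a further gene lower in soleus, which made 3 higher (2.99% of all genes) and 4 lower (2.71%). Between psoas and EDL, none of the 8 passed, against 2.11% of all genes (0.54% higher and 1.57% lower in psoas). In that comparison, 4 of the 8 (Myl2, Myl4, Mylk2, and Mylk4) had an unadjusted p under 0.05 with edgeR. The share of all genes under that limit was not computed, so this count has nothing to be set against. DESeq2 and limma-voom each called 1 gene, Myl4, against 6.8% and 2.19% of all genes. Libraries of the muscles compared did not overlap for 7 of the 8 genes between soleus and EDL (29.5% of all genes), with 3 higher in soleus (15.2%) and 4 lower (14.3%). They did not overlap for 8 of 8 between soleus and psoas (25.8%), with 4 higher in soleus (13.9%) and 4 lower (11.9%). Between psoas and EDL, they did not overlap for 3 of 8 (29.6%), with Mylk4 higher in psoas (13.4%) and Myl2 and Myl4 lower (16.3%).

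**Figure D1:**
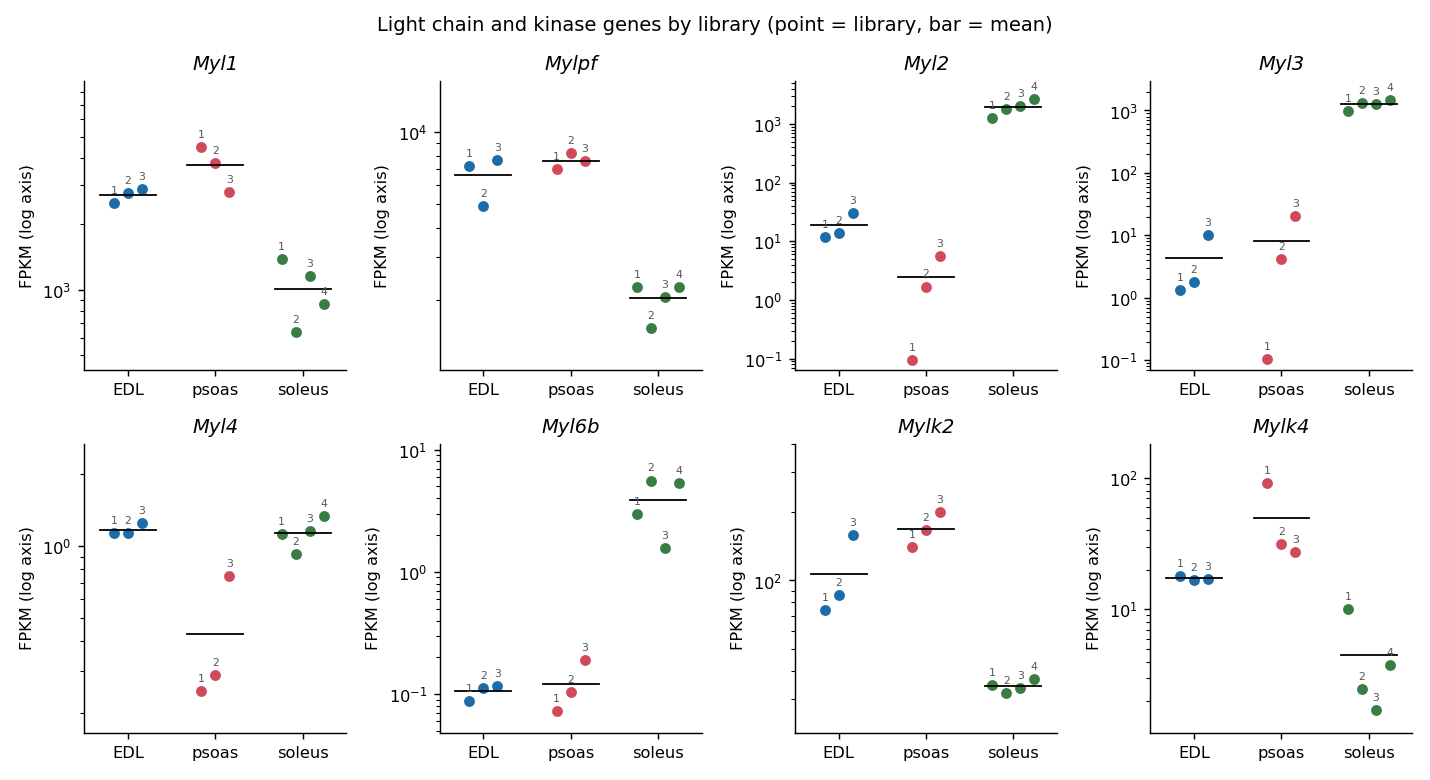
FPKM (log axis) of the 8 genes in each library, with the replicate number beside each point and a bar at the mean of each muscle. Myl2 and Myl3 were at 967 FPKM or above in the 4 soleus libraries and at most 30.7 FPKM in the 6 libraries of EDL and psoas, whereas Mylpf and Myl1 were at 641 FPKM or above everywhere.

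Mylpf (ENSMUSG00000030672, chromosome 7, 127208890 to 127214298, plus strand, GRCm38), the regulatory chain of fast fibers, was the most abundant of the 8 transcripts in EDL and psoas and was still strongly expressed in soleus. In EDL, its level was 7225, 4928, and 7698 FPKM in replicates 1, 2, and 3. In psoas, it was 7001, 8200, and 7607 FPKM. In soleus, it was 2261, 1519, 2049, and 2258 FPKM. All soleus libraries were below those of both fast muscles, which overlapped with each other. The level was 3.26-fold lower in soleus than in EDL (log2 fold change −1.70 ± 0.26 SE, adjusted p = 0.00152) and 3.70-fold lower than in psoas (−1.89 ± 0.26, adjusted p = 0.00084). The difference between psoas and EDL was small (0.18 ± 0.28, adjusted p = 0.716). By mean FPKM, Mylpf was at rank 20 of the genes with an exon length in EDL and at rank 29 in soleus.

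Myl2 (ENSMUSG00000013936, chromosome 5, 122100951 to 122113472, plus strand), the regulatory chain of slow fibers and of the heart's ventricles, spanned more than 4 orders of magnitude between libraries. The soleus levels were 1286, 1797, 2029, and 2706 FPKM. The EDL levels were 11.99, 14.04, and 30.7 FPKM. Those of psoas were 0.0957, 1.70, and 5.73 FPKM, from 7, 52, and 160 counts. The ranges of the 3 muscles did not overlap, with soleus highest and psoas lowest. Myl2 was 104-fold higher in soleus than in EDL (6.70 ± 1.05, adjusted p = 0.00185) and 811-fold higher than in psoas (9.66 ± 1.21, adjusted p = 0.000475). The difference between psoas and EDL, −2.96 ± 0.92 on the log2 scale, did not pass (adjusted p = 0.0596), but did with animal code as a random effect in limma-voom (−4.92, adjusted p = 0.00971). The size of the psoas differences rested on single libraries: without psoas 3, they were 11.25 (soleus minus psoas) and −4.55 (psoas minus EDL), and without psoas 1, 9.04 and −2.38. Without EDL 1 or EDL 2, the adjusted p of Myl2 between soleus and EDL was 0.0141 and 0.0144, above the threshold. Mean FPKM placed Myl2 at rank 30 in soleus, next to Mylpf. Ccdc63, on the opposite strand, overlaps Myl2, and since the strand setting of the counting is not given in the sources used here, the reads of these genes may not be fully separated; Ccdc63 had 36 counts in psoas 1, where Myl2 had 7.

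Put as a share of both regulatory chains (counts per kilobase of exon), Myl2 made up 48.7% ± 8.56 (SD, n = 4) in soleus, 0.282% ± 0.116 in EDL (n = 3), and 0.0325% ± 0.0383 in psoas (n = 3). Single soleus libraries had 36.3%, 54.2%, 49.8%, and 54.5%. Soleus 1 was thus the lowest of the 4, and the fast muscles did not come near any of them. Single psoas libraries had 0.00137%, 0.0208%, and 0.0752%, and without psoas 3, the psoas mean was 0.0111%. An exact two-sided permutation test of soleus against both fast muscles gave p = 0.00952, the smallest this design allows, and 0.0762 when adjusted (Benjamini-Hochberg) for the 16 tests of such shares and ratios. Soleus against EDL or psoas alone cannot go below 0.0571, and psoas against EDL cannot go below 0.10. Both soleus comparisons reached 0.0571 (0.152 adjusted), and the lower share in psoas than in EDL reached 0.10 (0.203 adjusted).

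Myl1 (ENSMUSG00000061816, chromosome 1, 66924295 to 66945404, minus strand) encodes the essential chains of fast fibers, which come from alternative starts of the gene. EDL libraries had 2478, 2772, and 2891 FPKM. Psoas libraries had 4497, 3804, and 2790 FPKM. Soleus libraries had 1380.2, 641, 1148, and 863 FPKM. The soleus libraries were below the fast ones, and psoas overlapped with EDL. Myl1 was 2.68-fold lower in soleus than in EDL (−1.42 ± 0.29, adjusted p = 0.00757) and 3.61-fold lower than in psoas (−1.85 ± 0.29, adjusted p = 0.00186), and it was 0.43 ± 0.31 higher on the log2 scale in psoas than in EDL, which did not pass (adjusted p = 0.402). The call against EDL was close to the threshold. It was lost without any one of EDL 1, 2, or 3, psoas 2, or soleus 2, 3, or 4, with adjusted p from 0.0106 to 0.0318. With trimming as a covariate, both calls were lost (adjusted p = 0.0424 against EDL and 0.0127 against psoas). Of the 75-base windows of Myl1 exons, 8.08% occur also in Mylf-ps, a processed copy not among the genes counted.

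Myl3 (ENSMUSG00000059741, chromosome 9, 110741861 to 110769798, plus strand), the essential chain of slow fibers and ventricles, was at 967, 1307, 1283, and 1481 FPKM in soleus. The EDL libraries had 1.35, 1.81, and 10.03 FPKM. The psoas libraries had 0.104, 4.25, and 20.2 FPKM, from 8, 136, and 591 counts. Soleus stood apart from both fast muscles, and psoas spanned the whole range of EDL and beyond. The difference was 8.20 ± 1.49 between soleus and EDL (adjusted p = 0.00412) and 7.29 ± 1.43 between soleus and psoas (adjusted p = 0.00606). Between psoas and EDL, it was 0.90 ± 1.13 (adjusted p = 0.645), and its sign turned to −1.08 without psoas 3. The soleus call against EDL was lost without EDL 1 or EDL 2 (adjusted p = 0.0240 and 0.0258), and the call against psoas without psoas 2 (0.0353) or any one soleus library (0.0101 to 0.0139). Over all fits without 1 library, the difference between soleus and EDL was 7.71 to 9.65 (highest without EDL 3), and that between soleus and psoas was 6.68 to 9.28 (highest without psoas 3). Pth1r overlaps Myl3 on the opposite strand and shares 1.23% of its 75-base windows, and had between 5 and 83 counts per library, with 14 in psoas 1, where Myl3 had 8.

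Myl6b (ENSMUSG00000039824, chromosome 10, 128494157 to 128498685, minus strand), a minor essential chain of slow fibers, was far less abundant. In soleus, it was at 2.97, 5.59, 1.57, and 5.35 FPKM, from 81, 359, 36, and 192 counts. In EDL, it was at 0.0871, 0.112, and 0.117 FPKM, and in psoas at 0.0722, 0.104, and 0.189 FPKM. The fast muscle values rested on 3 to 11 counts per library and overlapped, and every soleus library was above them. The level was 37.2-fold higher in soleus than in EDL (5.22 ± 0.53, adjusted p = 0.000145) and 35.5-fold higher than in psoas (5.15 ± 0.56, adjusted p = 0.000218). Between psoas and EDL, the difference was 0.07 ± 0.68 (adjusted p = 0.963), and at counts this low, a difference of 1 on the log2 scale lay within 2 standard errors. Leaving out single libraries turned its sign, between −0.34 and 0.44.

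Myl4 (ENSMUSG00000061086, chromosome 11, 104550663 to 104595753, plus strand), the essential chain of the atria and of embryonic muscle, was lowest in psoas, with EDL and soleus above it. In EDL, it was at 1.13, 1.13, and 1.25 FPKM. In soleus, it was at 1.123, 0.924, 1.16, and 1.342 FPKM. In psoas, it was at 0.247, 0.289, and 0.753 FPKM, from 43, 21, and 50 counts. EDL and soleus overlapped, and all psoas libraries were below both. The difference was −1.50 ± 0.37 between psoas and EDL (adjusted p = 0.0268) and 1.46 ± 0.36 between soleus and psoas (adjusted p = 0.0184), so that neither passed the threshold of 0.01 with edgeR. Both passed with DESeq2 (adjusted p = 0.00122 and 0.000677) and limma-voom (0.00848 and 0.00497; 0.00644 and 0.00231 with animal code as a random effect). Without psoas 3, both passed (−2.16, adjusted p = 0.00509, and 2.13, adjusted p = 0.000693). Neither passed without psoas 1 (−1.21, adjusted p = 0.0689, and 1.12, adjusted p = 0.0695) or psoas 2 (adjusted p = 0.0833 and 0.0733). With trimming as a covariate, the difference from EDL passed (−1.64, adjusted p = 0.00675) and that from soleus did not (1.03, adjusted p = 0.0768). Between soleus and EDL, Myl4 differed by −0.03 ± 0.33 (adjusted p = 0.954). Of 4 heart genes found in the files, from a list of 6, Actc1, the cardiac actin also expressed in growing skeletal muscle, was called lower in soleus than in EDL, and Tnni3 and Tnnt2 were called higher in soleus than in psoas.

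The slow essential chains, Myl3 and Myl6b, made up 56.1% ± 11.6 of the essential chains in soleus, 0.159% ± 0.165 in EDL, and 0.281% ± 0.388 in psoas. Soleus libraries had 41.2%, 67.1%, 52.8%, and 63.2%, so that soleus 1 was again the lowest. The exact permutation test of soleus against both fast muscles gave p = 0.00952 (0.0762 adjusted), and psoas and EDL overlapped (p = 0.80, 0.80 adjusted). Without psoas 3, the psoas mean was 0.0592%, and without EDL 3, the EDL mean was 0.0635%. Soleus 1 was among the libraries with a large share of Lars2 and was the only soleus library labelled male. It also had the highest Myl1 level of its muscle, and whether these traits are linked was not tested.

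**Figure D2:**
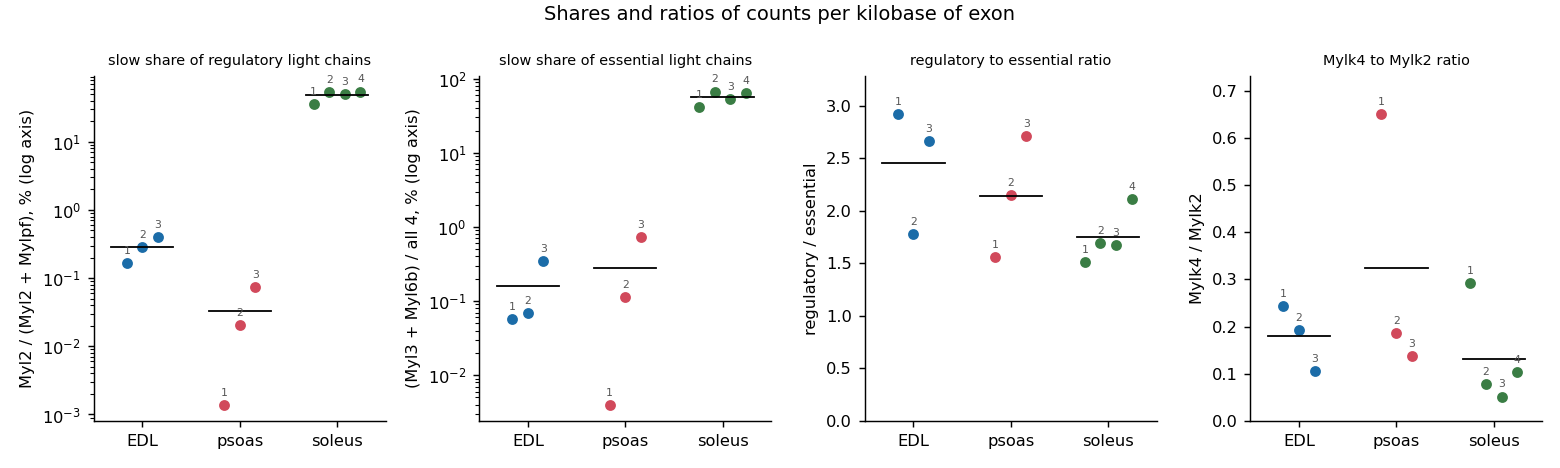
Shares of slow chains (percent, log axes) and 2 ratios (linear axes) in each library, computed from counts per kilobase of exon, with a bar at the mean of each muscle. Slow chains were between 36.3% and 67.1% in soleus and below 1% in all libraries of the fast muscles, while both ratios overlapped between muscles.

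The balance of regulatory to essential chains overlapped among muscles. It was 2.45 ± 0.596 in EDL, 2.14 ± 0.576 in psoas, and 1.75 ± 0.257 in soleus (SD, n = 3, 3, and 4). The exact permutation test of soleus against both fast muscles gave p = 0.105 (0.203 adjusted), and the sign of this difference turned from −0.548 to 0.0974 when counts were not divided by exon length. The ratio of Myl1 to Mylpf, the fast pair, was 0.427 ± 0.118 in EDL, 0.491 ± 0.140 in psoas, and 0.494 ± 0.109 in soleus. The summed light chains relative to Myh1, Myh2, Myh4, and Myh7, the heavy chains of adult fibers, gave 1.03 ± 0.117 in EDL, 0.995 ± 0.0933 in psoas, and 1.67 ± 0.252 in soleus, with 1.48 to 2.02 in soleus and 0.889 to 1.16 in the fast muscles. With the lengths of the longest basic transcripts, the values were higher and the order was kept (1.57, 1.53, and 2.63). The heavy chain sums left out Myh6, which was at 173 to 387 FPKM in soleus and at most 4.67 FPKM in the fast muscles. Counting it would lower the ratio mainly in soleus. These last 2 ratios were chosen after their values were seen and were not tested.

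Myl2 and Myl3, the slow pair, stood in different proportions in the 3 muscles. This ratio was likewise chosen after its values were seen, and is given without a test. In soleus, Myl2 exceeded Myl3 by 1.33, 1.37, 1.58, and 1.83 times (counts per kilobase). In EDL, the ratio was 8.89, 7.76, and 3.06. In psoas, it was 0.917, 0.401, and 0.284. The 3 muscles did not overlap, with Myl2 in excess in EDL and Myl3 in excess in psoas. Psoas 1 had only 7 counts of Myl2 and 8 of Myl3, and the 95% exact binomial interval of its ratio of counts, 0.270 to 2.76, covered the soleus values. For psoas 2 and psoas 3, the intervals were 0.272 to 0.530 and 0.226 to 0.323, and for EDL 3, 2.59 to 3.29. These intervals cover counting error only. When the mean of each muscle was removed, Pearson's r of Myl2 and Myl3 (log2 CPM) was 0.98 over the 10 libraries. This r is a description of libraries that share depth and muscle, and the psoas libraries weighed most in it. There, Myl2 was at 0.185 to 11.3 CPM and Myl3 at 0.211 to 41.8 CPM.

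**Figure D3:**
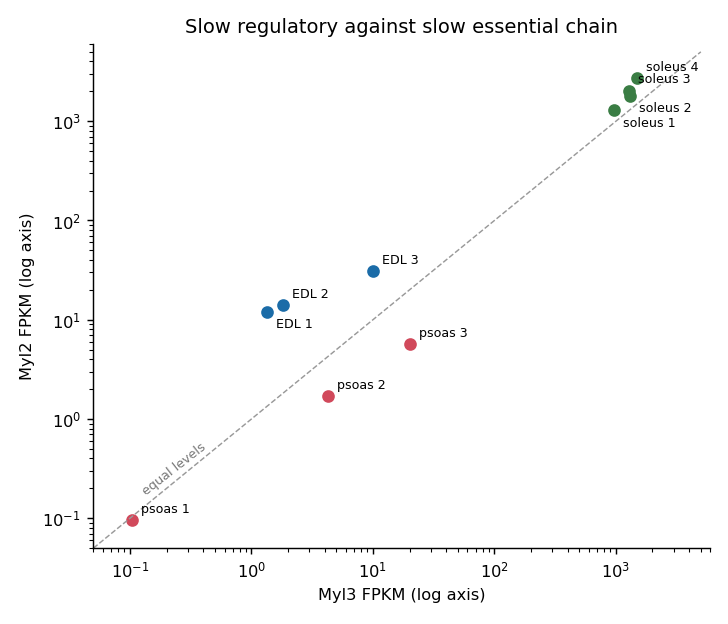
Myl2 against Myl3 in FPKM on log axes, 1 point per library, with a dashed line where both are equal. EDL libraries lay above the line, with ratios from 3.06 to 8.89, psoas libraries below it, and soleus libraries close above it.

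EDL 3 and psoas 3, both untrimmed and from females of 44 days, had the highest Myl2 and Myl3 of their muscles. In EDL 3, Myh7, the slow heavy chain, was at 13.4 FPKM, against 0.861 and 3.47 FPKM in EDL 1 and EDL 2. Tnnt1 and Tnnc1, slow troponins, were at 15.3 and 3.49 FPKM there, again the highest of EDL. Psoas 3 was likewise the highest psoas library for Tnnt1 (2.69 FPKM, against 0.726 and 0.986 FPKM), Tnni1, Tnnc1, and Atp2a2. In psoas 1, 2, and 3, Tnnc1 rested on 9, 7, and 7 counts, too few to rank these libraries, and Tnni1 on 20, 21, and 31 counts. Psoas 3 was not the highest for Myh7, at 0.600 FPKM against 1.16 FPKM in psoas 2, or for Tpm3. The ratio of Myl3 to Myh7 was 33.7 in psoas 3 and between 0.279 and 3.65 in the other 9 libraries. Summed over the 5 slow fiber genes Tnnc1, Tnni1, Tnnt1, Tpm3, and Atp2a2, EDL 3 had 42.3 FPKM and psoas 3 11.5 FPKM, each the highest of its muscle (6.59 and 7.81 FPKM in psoas 1 and 2). Pth1r had 7 counts in psoas 3, where Myl3 had 591.

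**Figure D4:**
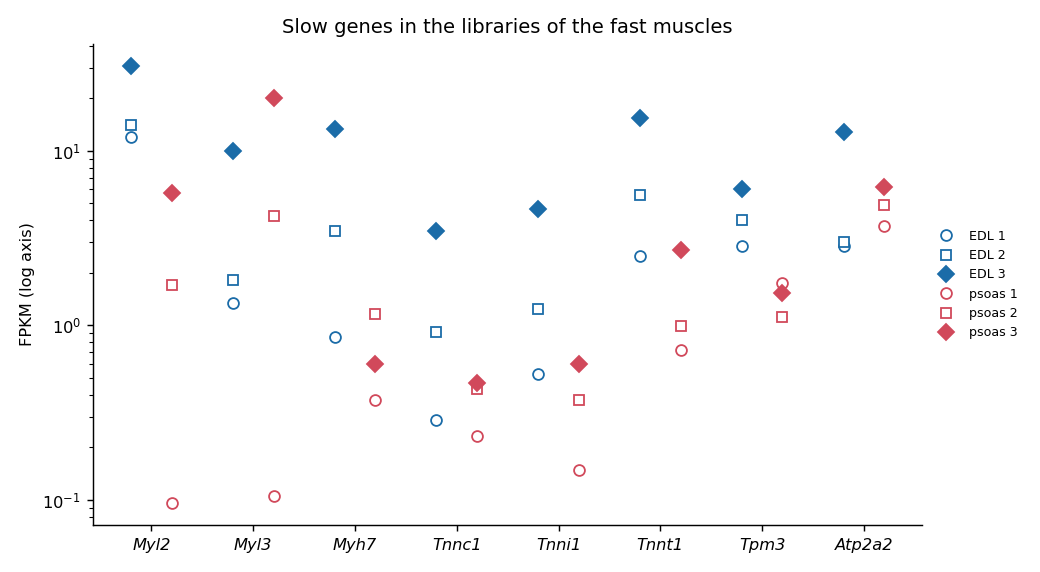
FPKM (log axis) of 8 genes of slow fibers in the 3 EDL and 3 psoas libraries, with replicate 3 of each muscle as filled diamonds. EDL 3 was the highest EDL library for all 8, and psoas 3 was the highest psoas library for 6 of them, among them Myl3 (20.2 FPKM) and Tnnt1 (2.69 FPKM), but not for Myh7 (0.600 FPKM) or Tpm3. Tnnc1, another of the 6, rested on 7 to 9 counts in the psoas libraries.

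Mylk2 (ENSMUSG00000027470, chromosome 2, 152911352 to 152923068, plus strand), the skeletal muscle kinase of the regulatory chain, was lower in soleus than in either fast muscle. Levels in EDL were 73.9, 86.5, and 159 FPKM. Levels in psoas were 140.04, 168, and 201 FPKM. Levels in soleus were 34.4, 31.8, 33.4, and 36.7 FPKM. Soleus libraries lay close together below all others, and EDL 3 lay within the psoas range. Mylk2 was 3.11-fold lower in soleus than in EDL (−1.64 ± 0.25, adjusted p = 0.00170) and 4.89-fold lower than in psoas (−2.29 ± 0.26, adjusted p = 0.000256), and both calls held without each library in turn. Between psoas and EDL, the difference was 0.65 ± 0.27 (adjusted p = 0.138), and it passed without EDL 3 (1.07, adjusted p = 0.00646). Relative to both regulatory chains summed, Mylk2 was 1.61% ± 0.535 in EDL, 2.23% ± 0.357 in psoas, and 0.872% ± 0.111 in soleus (a ratio chosen after its values were seen). With the lengths of the longest basic transcripts, the values were 1.16%, 1.61%, and 0.491%.

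Mylk4 (ENSMUSG00000044951, chromosome 13, 32700834 to 32783954, minus strand), a less studied kinase of the family, was at 17.97, 16.73, and 16.99 FPKM in EDL. Psoas had 91.0, 31.3, and 27.6 FPKM. Soleus had 10.1, 2.49, 1.73, and 3.80 FPKM. The 3 ranges did not overlap, with psoas highest and soleus lowest. Psoas 1 and soleus 1, of the same animal code, were each the highest of their muscle. Mylk4 was 10.8-fold lower in soleus than in psoas (−3.44 ± 0.58, adjusted p = 0.00261). This call was lost without psoas 1 (−2.70, adjusted p = 0.0104), soleus 2 (0.0106), or soleus 4 (0.0112). Differences of −1.92 ± 0.56 between soleus and EDL (adjusted p = 0.0343) and of 1.51 ± 0.60 between psoas and EDL (adjusted p = 0.124) did not pass, although the former did without soleus 1 (−2.67, adjusted p = 0.00482) and with animal code as a random effect in limma-voom (−2.32, adjusted p = 0.00683). Without psoas 1, the latter was 0.73. With trimming as a covariate, the call against psoas was lost (−3.02, adjusted p = 0.0192). Psoas 1 and soleus 1 were also among the libraries with a large share of Lars2, and its part in these values was not tested.

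Per kilobase of exon, Mylk4 was below Mylk2 in every library. The ratio of Mylk4 to Mylk2 was 0.243, 0.193, and 0.107 in EDL. In psoas, it was 0.650, 0.187, and 0.137, and in soleus 0.293, 0.0784, 0.0517, and 0.103. The muscles overlapped, and the first replicate was the highest in each. Exact permutation tests gave p = 0.70 for psoas against EDL, 0.514 for soleus against EDL, 0.343 for soleus against psoas, and 0.276 for soleus against both (0.442 or more after adjustment). Without psoas 1, the psoas mean was 0.162 in place of 0.325, and without soleus 1, the soleus mean was 0.0778 in place of 0.132.

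**Figure D5:**
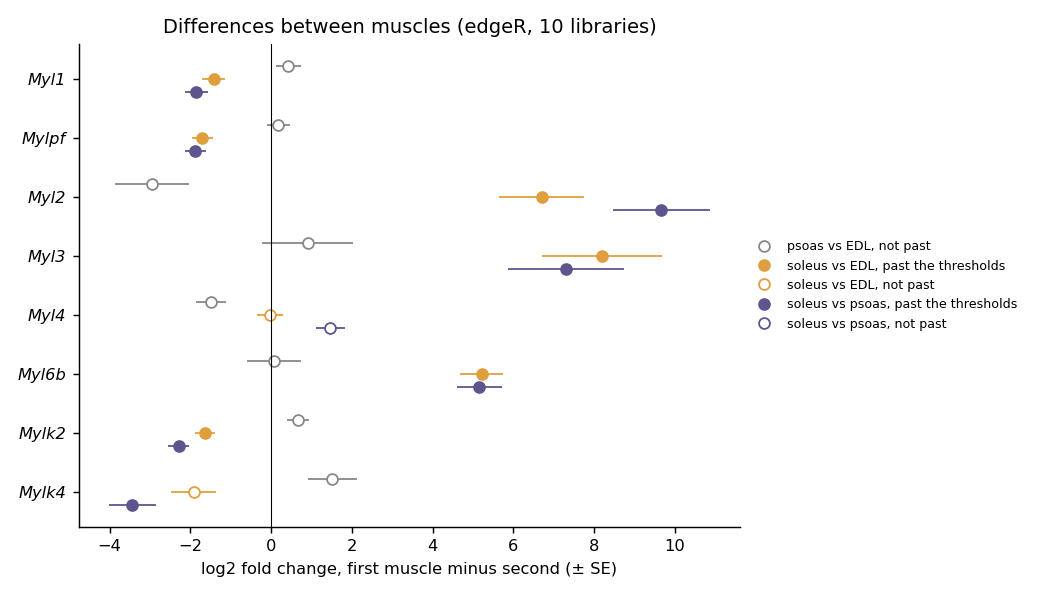
log2 fold changes with standard errors (edgeR) of the 8 genes in the 3 comparisons, first muscle minus second. Filled points passed the thresholds of 0.01 for the adjusted p and 2 for the fold change. Myl2, Myl3, and Myl6b lay at 5.15 or above in both soleus comparisons, and no gene passed between psoas and EDL.

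Of the 5 non-sarcomeric or minor light chains in the files (Myl6, Myl9, Myl10, Myl12a, and Myl12b), Myl12a, a nonmuscle regulatory chain, was called higher in soleus than in EDL (2.16 ± 0.32, adjusted p = 0.00119) and psoas (2.42 ± 0.32, adjusted p = 0.00065). It was at 105, 191, 198, and 234 FPKM in soleus and at 25.1 to 48.5 FPKM in the fast muscles, without overlap. Myl12b was called higher in soleus than in psoas (1.59 ± 0.28, adjusted p = 0.00333) and was at 11.5 to 28.0 FPKM in soleus and 6.99 to 8.90 FPKM in psoas. The other 3 passed in no comparison. Median log2 fold changes of these 5 genes were −0.14 (soleus vs EDL), 1.21 (soleus vs psoas), and −0.71 (psoas vs EDL), against −0.05, 0.02, and 0.01 over all genes. Markers of smooth muscle, which also uses Myl6 and Myl9, summed to 12.9 to 23.8 FPKM in EDL, 14.7 to 20.9 FPKM in psoas, and 15.8 to 22.6 FPKM in soleus, and 1 of the 6, Lmod1, was called (lower in soleus than in psoas).

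Among 5 other kinases that act on regulatory chains, Mylk3, the cardiac light chain kinase, was called higher in soleus than in EDL (3.82 ± 0.57, adjusted p = 0.00138) and psoas (3.97 ± 0.61, adjusted p = 0.00149). In soleus, it was at 0.442, 1.59, 0.845, and 1.59 FPKM, and in the fast muscles at 0.0298 to 0.147 FPKM from 2 to 16 counts. Soleus values were all higher than those of the fast muscles and well below those of Mylk2. Mylk, the smooth muscle kinase, Rock1, Rock2, and Dapk3 passed in no comparison. The medians of the 5 were 0.32, 0.33, and −0.14 for soleus vs EDL, soleus vs psoas, and psoas vs EDL.

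Calm2 and Calm3 are genes of the calcium sensor calmodulin. Calm3 was called lower than in EDL (−1.16 ± 0.21, adjusted p = 0.00357) and psoas (−1.28 ± 0.21, adjusted p = 0.00197), and Calm2 was called lower than in psoas (−1.18 ± 0.14, adjusted p = 0.000429). Against EDL, Calm2 had an adjusted p of 0.00186 and differed by less than 2-fold (−0.92 ± 0.14), so that it was not called. Calm2 was at 64.2 to 67.7 FPKM in soleus and 116 to 167 FPKM in the fast muscles, without overlap. Neither gene was called between psoas and EDL.

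Of 6 genes of the light chain phosphatase in the files, 2 were called. Ppp1r12b, a targeting subunit of striated muscle, was higher in soleus than in EDL (1.904 ± 0.29, adjusted p = 0.00161), with 10.9 to 18.1 FPKM against 2.81 to 4.22 FPKM. Its difference between soleus and psoas, 0.99 ± 0.28, did not pass (adjusted p = 0.0364). Ppp1r14c, an inhibitor of the phosphatase, was lower in soleus than in psoas (−1.89 ± 0.23, adjusted p = 0.000361), with 2.49 to 3.72 FPKM against 10.2 to 13.6 FPKM. Ppp1cb, the catalytic subunit, Ppp1r12a, Ppp1r12c, and Ppp1r14b passed in no comparison. The medians of the 6 were 0.09 (soleus vs EDL), 0.18 (soleus vs psoas), and 0.46 (psoas vs EDL).

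Of the 8 heavy chain genes listed beside the light chains, Myh7, Myh6, and Myh7b were called higher in soleus in both comparisons and Myh2 against EDL, and Myh4 and Myh8 were called lower in both. Between soleus and EDL, Myh7 differed by 7.58 ± 0.98, beside 6.70 ± 1.05 for Myl2 and 8.20 ± 1.49 for Myl3. Myh4, the fastest heavy chain, differed by −5.16 ± 0.73, beside −1.70 ± 0.26 for Mylpf and −1.42 ± 0.29 for Myl1. Soleus 2, with the least Myh4 of all libraries (18.0 FPKM), also had the lowest Myl1 and Mylpf of soleus. None of the 8 was called between psoas and EDL. Their medians were 1.338 (soleus vs EDL), 1.178 (soleus vs psoas), and 0.03 (psoas vs EDL).

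Genes whose pattern over the 10 libraries was most like that of each gene (Pearson's r of log2 CPM, 12705 candidates, a description over libraries that fall into 3 muscles) differed among all of the genes. For Myl2, they were Rab15, Osgin2, and Myoz2 (r = 0.983 to 0.985). For Myl3, they were Idh2 (0.995), Egln3, and Homer2 (both 0.987). For Myl6b, they were Mhrt, Gm29015, and Lgi1 (0.979 to 0.982). None of these 9 genes was shared, and the same held for the fast chains, Myl4, and the kinases. For the fast chains, they were Mstn, Myh8, and Phka1 for Myl1 (0.980 to 0.982) and Crot, Gpd2, and Tspan8 for Mylpf (0.979 to 0.983). Myl4 was most like Tmem167b, Gm9869, and Rpl3 (0.948 to 0.956), a weaker likeness than for the other genes. Mylk2 was most like Tmem56, Cbfb, and Pgm1 (0.981 to 0.986), and Mylk4 most like Ttll4, Cntfr, and Naa16 (0.960 to 0.979).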

How the data were processed

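Counts from 10 libraries of total RNA (3 EDL, 3 psoas, and 4 soleus) were analyzed. The authors used Trimmomatic 0.32 on libraries of low quality and TopHat 2.1.1 with GRCm38.p4 for alignment. They deposited raw counts per gene, not normalized, for genes that reached 10 reads in 3 or more samples. The treatment of multiply aligned reads and the strand setting are not given in the sources used here.

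The 3 comparisons were made in edgeR 4.0.16 (R 4.3.3; TMM, quasi-likelihood test, 16112 genes, Benjamini-Hochberg adjustment, no covariate). FPKM values were computed with DESeq2 1.42.0 from the exon unions of GENCODE M21, and limma 3.58.1 served alternatives. Shares and ratios were computed with pandas 2.3.3 and tested with SciPy 1.17.1 by exact two-sided permutation. The labels hold 7 animal codes, 3 with more than 1 library. Within these 3 codes, deviations from the muscle means correlated at r = 0.215, 0.400, and 0.475. Pairs of libraries from different muscles and with different codes lay between −0.579 and 0.538, a range that covers these values. An alternative took the code as a random effect. The methods of the study name fewer mice than codes, so that more libraries may share an animal, and p-values treat the libraries as independent. Scripts were tested on simulated data. Depth ranged from 12737971 to 50431713 counts, where 3 counts, the limit that a count of 0 allows, equal 0.0595 to 0.236 CPM.

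The genes and lists were chosen with earlier results of these data known. Genes are named if they belong to the 8, to a list of the pathway, or to the 3 genes most like each of the 8 (mean of at least 1 CPM, log2 of CPM + 0.5). Markers of smooth muscle, slow fibers, and the heart are named beside results, and those of tendon, fast fibers, developing or denervated muscle, and skeletal muscle in general are given as observations. A gene of these lists is not reported here. Alternatives were other tests, normalizations, filters, covariates, thresholds, and samples. The 4 chosen after seeing the data were trimmed or untrimmed libraries alone in the fits, trimmed libraries alone for ratios, and transcript in place of exon union length. Soleus libraries were checked for outliers with Dixon's ratio (critical value 0.829).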

Additional observations from a re-analysis of the deposited data

How the results depend on the processing

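Soleus calls of Mylk2 held under all alternatives run, and differences of Myl2, Myl3, Myl6b, Mylpf, and Myl1 between soleus and the fast muscles kept their sign. The sizes for the slow pair moved: over the alternatives, log2 fold changes of Myl2 were 5.43 to 7.24 (soleus vs EDL) and 8.41 to 11.7 (soleus vs psoas). Those of Myl3 were 6.75 to 9.65 (soleus vs EDL) and 5.96 to 10.1 (soleus vs psoas). Between psoas and EDL, the 0 calls became 1 with DESeq2 (6.8% of all genes), limma-voom (2.19%), trimming as a covariate (3.75%), or sex as a covariate (5.37%). The fit with sex left out soleus 3, whose sex is not known. An adjusted p under 0.05 also gave 1 call, and the share of all genes was not computed for it. Animal code as a random effect gave 2 (Myl2 and Myl4, against 2.48%). Fits without single libraries gave 0 to 1 (0.379% to 5.98%). Soleus vs EDL had 6 calls, 3 in untrimmed libraries alone (EDL then has 1 library, assumed to vary like the others), and 3 to 7 without single libraries, with 3 without EDL 1 or EDL 2. Soleus vs psoas had 7 calls, 3 in untrimmed libraries alone, and 5 to 8 without single libraries. With animal code as a random effect, the soleus comparisons had 7 and 8 calls, against 6.54% (EDL) and 6.24% (psoas) of all genes. Mylk4 against EDL and Myl4 against psoas were added. With trimming as a covariate, these comparisons had 5 calls each, against 2.3% and 3.51% of all genes. Myl1 was lost in both and Mylk4 against psoas. Fits without a library, with sex as a covariate, and of untrimmed libraries rest on fewer samples, and the cause of the other changes was not tested.

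Libraries with the same replicate number had different animal codes, except psoas 1 and soleus 1. Correlations of same-numbered deviations lay between −0.312 and 0.538. With a replicate block, calls were 0, 5, and 6 for psoas vs EDL, soleus vs EDL, and soleus vs psoas, and Myl1 was the gene lost in both (adjusted p = 0.0309 and 0.0141). Over all genes, the block gave 146, 586, and 539 calls in place of 340, 929, and 917. Other numbers of all genes beyond 1.5 times were 1095 (psoas vs EDL) and 1520 (soleus vs EDL) with DESeq2, which also gave 1382 for soleus vs psoas, 371 and 566 for the soleus comparisons and 605 for psoas vs EDL with trimming as a covariate, 865 with sex, and 153 in a fit of psoas and EDL alone. Leaving out single libraries gave 61 to 963, 385 to 1511, and 493 to 964. Untrimmed libraries alone gave 0, 48, and 33, and trimmed ones 159.

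Signs turned only for differences that were not called. For psoas vs EDL, these were Myl3 with limma-voom (−1.09), with animal code as a random effect (−1.14), and without single libraries (−1.08 to 2.35), Myl6b with upper-quartile factors (−0.0108), sex (−0.0500), trimmed libraries alone (−0.29), and without single libraries (−0.34 to 0.44), and Myl1 (−0.0862) and Mylpf (−0.0519) in untrimmed libraries alone. For soleus vs EDL, it was Myl4 without single libraries (−0.131 to 0.0487).

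Shares and ratios moved with the length used. Without division by exon length, the slow share of regulatory chains was 0.517% in EDL and 63.2% in soleus, the regulatory to essential ratio 1.26, 1.10, and 1.27 in EDL, psoas, and soleus, and the Mylk4 to Mylk2 ratio 0.472, 0.846, and 0.343. The difference of soleus from both fast muscles in the regulatory to essential ratio then turned to 0.0974. With the length of the longest basic transcript, the slow regulatory share was 0.446% in EDL and 59.8% in soleus, and the regulatory to essential ratio 1.78 in EDL and 1.55 in psoas. In untrimmed libraries alone, the slow regulatory share was 0.0752% in psoas, the slow essential share 0.350% in EDL and 0.725% in psoas, the Mylk4 to Mylk2 ratio 0.107 in EDL, and its soleus difference 0.0098. Without single libraries, soleus shares were 46.7% to 52.8% (regulatory) and 52.4% to 61.1% (essential).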

Other observations

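Tendon markers, for cells attached to the ends of a muscle, differed between the samples beside the light chains: 5 of 6 (Tnmd, Scx, Fmod, Thbs4, and Kera) were called lower in psoas than in EDL, and 3 of 6 higher in soleus than in psoas. Their summed level was 325 to 363 FPKM in EDL, 13.1 to 31.9 FPKM in psoas, and 31.0 to 188 FPKM in soleus, and their part in the light chain results was not tested. Of 5 measured genes of developing or denervated muscle, Chrna1 and Ncam1 were called higher in soleus than in psoas and Gadd45a lower in soleus than in both, and their summed level, 7.51 to 15.1 FPKM, overlapped among muscles. Of 6 fast fiber genes, Pvalb and Actn3 were called lower in soleus than in both fast muscles and Tnni2 lower than in psoas. Of 7 genes of skeletal muscle in general, Mb and Actn2 were called higher in soleus in both comparisons, Des higher than in EDL, and Ckm lower than in psoas. No soleus library passed Dixon's limit for any of the 8 genes or 4 shares and ratios; the highest ratio, 0.786, was that of soleus 1 for Mylk4 to Mylk2.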
